A study of Homo sapiens with 15 samples.

Results

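The clustered replication-dependent histone genes are the genes that supply most of the histone protein a cell needs to package newly copied DNA. They were taken as the protein-coding genes whose GENCODE release 29 name begins with HIST1H, HIST2H, HIST3H or HIST4H, which gave 71 of the 58780 genes in the count table. There were 6 linker histone H1 genes, 17 H2A genes, 18 H2B genes, 15 H3 genes and 15 H4 genes. The HIST1 cluster on chromosome 6 held 55 of them, the HIST2 cluster on chromosome 1 held 12, the HIST3 cluster on chromosome 1 held 3, and HIST4 on chromosome 12 was a single gene. The release 29 names were matched to current symbols, 66 by gene identifier and 5 by an older name in RefSeq. A HIST1H name does not by itself show that a gene is replication-dependent or active, and several genes here had no reads.

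RNA was sequenced in 15 libraries of cardiomyocytes made from H7, an established human embryonic stem cell line of unmodified genotype, by a protocol that directs cells to the atrial fate with retinoids and dissociates the spheroids at day 17. ATRNL1, the gene of the attractin-like membrane protein, was raised in some of these cells and lowered in others. The 5 groups of 3 libraries were cells given a lentivirus that carries the short isoform of ATRNL1, cells given a control lentivirus, cells given siRNA-1 against ATRNL1, cells given siRNA-2 against ATRNL1, and cells given a scramble control siRNA. All transduced cells went through puromycin selection per the labels' protocols, whereas the siRNA cells are not described as selected, so the control lentivirus and the scramble siRNA differ in virus, selection and handling at once. The sequence of the scramble siRNA and the content of the control virus were not described in the labels. Levels below are CPM, the reads of a gene scaled to a common library size with TMM factors, fold changes are log2, and a gene is called where edgeR's quasi-likelihood test, Benjamini-Hochberg adjusted over all 24659 genes tested, gave an adjusted p under 0.05. Separate cultures are not stated for the libraries of a group. The p-values therefore reflect the spread among these libraries alone, and that spread may be technical.

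As background, transcription of these genes rises as cells enter S phase, when new nucleosomes are built behind the replication fork, and falls when replication ends. A nucleosome holds pairs of H2A, H2B, H3 and H4, and H1 binds the linker DNA between nucleosomes. Their mRNAs are unusual in having no introns and, in cycling cells, no polyA tail: the message ends just after a conserved stem-loop that the protein SLBP binds, and it is cut there by a machinery that includes the U7 small nuclear RNA. Some of the genes can also give longer, polyadenylated messages that run past the stem-loop, a form known from cells that have left the cycle. Heart muscle cells divide actively in early development and withdraw from the cycle as they mature, and histone transcripts fall with replication.

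The stem-loop is shown first because the way the gene models treat it sets which reads were counted. It was searched within the GENCODE release 29 transcripts as a pattern of 16 letters, with stem arms of 6 bases around a loop of 4. The pattern fixes the letters allowed at each place and does not require that the arms pair. It occurred in 53 of 19940 protein-coding genes (0.266%). It was within the model of 32 of the 71 members, in 6 forms. The form is given for the member of highest CPM that carries each, 5′ to 3′ in GRCh38 with the stem arms in capitals. In the form of H2AC11 a T lies opposite a G.
H2BC21 (HIST2H2BE, chr1:149886188-149886203, minus strand): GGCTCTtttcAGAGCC
H4C5 (HIST1H4E, chr6:26205001-26205016, plus strand): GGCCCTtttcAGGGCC
H2BC5 (HIST1H2BD, chr6:26158587-26158602, plus strand): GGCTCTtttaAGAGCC
H4C9 (HIST1H4I, chr6:27139654-27139669, plus strand): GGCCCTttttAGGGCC
H3C6 (HIST1H3E, chr6:26225596-26225611, plus strand): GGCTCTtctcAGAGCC
H2AC11 (HIST1H2AG, chr6:27133515-27133530, plus strand): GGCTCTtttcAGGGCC

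The form shown for H2BC21 occurred in 17 members, those shown for H4C5 and H2BC5 in 5 each, that of H4C9 in 3, and the forms of H3C6 and H2AC11 in 1 each. In 25 members a transcript that holds the stem-loop ran more than 50 bases past it, in 7 none did, and in the other 39 none of these forms was found in the model. Among the 7, H2BC5 has a gene model that reaches further downstream through another transcript. Where a model stops short of the end of its mRNA, reads from that end fall outside the counted gene. Exonic length ran from 297 to 5477 bases, and the CPM of a gene rises with that length, so the order of the genes is given both in CPM and per kilobase of exon.

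The upstream sequences are shown for 4 genes that differ in class and in behaviour: H1-5 and H2BC14, which had the highest fold changes between the control lentivirus and the scramble siRNA, H4C4, an H4 gene that changed with them, and H2BC21, the H2B gene of highest CPM, which did not pass the test in either lentivirus comparison. Each run is the 150 bases before the RefSeq start on GRCh38.p14, read in the direction of the gene, with capitals for 3 motifs searched on both strands: the TATA box (letters TATAAA), the CAAT box (letters CCAAT) and the octamer, spelled ATTTGCAT. The 4 runs lie at chr6:27867589-27867738 (H1-5, minus strand), chr6:27814872-27815021 (H2BC14, plus strand), chr6:26189113-26189262 (H4C4, minus strand) and chr1:149886683-149886832 (H2BC21, minus strand).
H1-5: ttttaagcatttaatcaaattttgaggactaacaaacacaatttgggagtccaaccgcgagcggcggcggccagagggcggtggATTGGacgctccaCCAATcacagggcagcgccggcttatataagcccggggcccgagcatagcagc
H2BC14: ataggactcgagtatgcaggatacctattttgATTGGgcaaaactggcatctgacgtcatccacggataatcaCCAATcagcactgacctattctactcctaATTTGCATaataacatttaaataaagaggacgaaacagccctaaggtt
H4C4: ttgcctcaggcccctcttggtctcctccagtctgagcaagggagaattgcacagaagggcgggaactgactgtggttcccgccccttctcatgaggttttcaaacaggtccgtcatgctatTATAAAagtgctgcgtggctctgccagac
H2BC21: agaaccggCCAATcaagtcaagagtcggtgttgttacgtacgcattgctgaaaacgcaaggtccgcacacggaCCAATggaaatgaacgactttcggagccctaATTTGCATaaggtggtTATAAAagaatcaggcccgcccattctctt

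In windows of 250 bases before to 50 after the start, which the RefSeq table held for 66 members, the letters were spread over the classes as follows. CCAAT occurred in all 6 H1, all 16 H2A, all 18 H2B and all 13 H3 windows, but in 3 of 13 H4 windows, against 35.7% of all 27305 promoters in the table. The octamer, the site of POU-domain factors such as OCT1 and long known from H2B promoters, occurred in 11 of 16 H2A and 14 of 18 H2B windows and in 1 of 13 H3 windows, against 1.80% of all promoters. These counts are not independent. Windows of H2A and H2B genes that lie head to head overlap, so the same letters can be counted for both genes. The H3 window with the octamer, that of H3C4, is the same stretch as the window of H2AC7, an H2A gene. TATAAA occurred in 44 of 66 (66.7%), against 12% of all. The octamer and the CAAT box can share letters at their ends, and a match describes letters, not a bound site.

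Several facts of the libraries bear on what follows. Total counts ran from 37078568 to 108663135 per library. ATRNL1 stood at 636, 927 and 727 CPM in ATRNL1 lentivirus libraries, against 29.2, 27.6 and 27.1 CPM in control lentivirus libraries. In siRNA-1 cells it stood at 10.2, 9.02 and 8.26 CPM, in siRNA-2 cells at 4.93, 5.41 and 4.61 CPM, and in scramble cells at 16.9, 13.8 and 15.3 CPM. Each group moved in the direction of its label. All 8 cardiomyocyte markers were present in every library (TNNT2, cardiac troponin T, at 2528 to 3904 CPM). Of 8 atrial markers, SLN (sarcolipin) and NR2F1 were under 1 CPM throughout, while the ventricular light chain MYL2 stood at 1069 to 4233 CPM. All 5 pluripotency markers and all 4 immune markers stayed under 1 CPM. In 3 groups 1 library lay between the other 2 for most genes above 20 CPM: scramble library 3 for 76.0% of genes, siRNA-1 library 2 for 60.7% and control lentivirus library 2 for 57.9%. Some sample titles join the numbers of the other titles of their group, but the labels do not state pooling, and results are given below without these 3 libraries where that matters. The labels' protocols describe ribosomal RNA depletion while their molecule field says polyA RNA, and the level of a message without a tail depends on which was done.

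Members took 0.0706% to 0.189% of a library's counts. Summed over all 71 genes, their level was 985, 1147 and 1059 CPM with the ATRNL1 lentivirus and 2077, 1867 and 1823 CPM with the control lentivirus. In siRNA-1 cells it was 919, 925 and 906 CPM, in siRNA-2 cells 853, 849 and 835 CPM, and in scramble cells 931, 664 and 808 CPM. The control lentivirus libraries stood above all 12 others, and the scramble libraries spread more widely than any of the siRNA libraries. In bulk RNA, a smaller share of replicating cells and less histone mRNA per cell cannot be told apart.

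**Figure D1:**
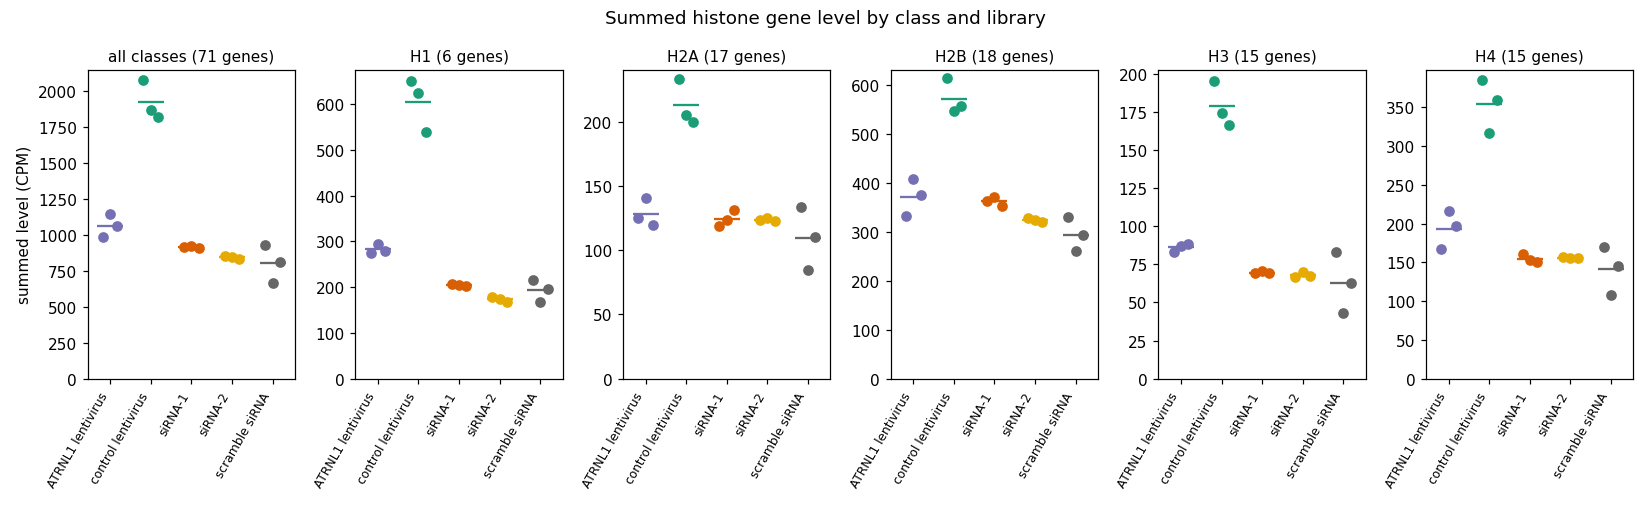
Summed level of the histone genes (CPM, linear axis from 0) for all 71 genes and for each class, with 1 point per library and a line at the group mean. In each panel the 3 control lentivirus libraries lie above every other library, and the second scramble library is the lowest of its group.

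Without correction for length, H2B genes held 34.7% of the members' summed level, H1 genes 26.3%, H4 genes 18%, H2A genes 12.6% and H3 genes 8.38%. The level was concentrated in few genes: 3 of 71 (H1-2, H2BC21 and H1-4) held 29.7% and the 12 of highest CPM held 64.4%. H1-2 (HIST1H1C, chr6:26055787-26056428) averaged 130 CPM over the 15 libraries, as did H2BC21 (130 CPM), followed by H1-4 (69.7), H4C5 (67.8), H2BC5 (62.6) and H1-5 (52.6 CPM). Per kilobase of exon the order was different. H1-2 stayed first at 202 CPM per kilobase, H1-4 followed at 92.5, H1-5 at 77.3, H2AC20 at 75.9 and H2BC5 at 71.9, while H2BC21, with a long model, was eighth at 59.1 CPM per kilobase.

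Relative to the control lentivirus, histone genes of every class fell in the ATRNL1 lentivirus libraries. Of 55 members that passed the filter on low counts, 46 were lower and 1 was higher, and 18% of all genes tested were lower and 19.1% higher in this comparison. The median log2 fold change of the 55 was -1.08, against 0.00 for all genes tested. The ATRNL1 lentivirus and control lentivirus libraries did not overlap for 47 of the 55, as was the case for 10581 of all 24659 genes tested (42.9%). Summed levels were 0.553 times those of the control lentivirus for all members, 0.468 times for H1, 0.604 for H2A, 0.650 for H2B, 0.483 for H3 and 0.547 for H4.

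Among the linker histones, 5 of 6 fell. H1-3 (HIST1H1D) stood at 37.9, 39.5 and 34.9 CPM with the ATRNL1 lentivirus and at 109, 101 and 87.6 CPM with the control lentivirus, a log2 fold change of -1.40 (SE 0.09; adjusted p = 3.47e-12, edgeR). H1-5 (HIST1H1B), the H1 subtype most tied to dividing cells, stood at 58.5, 51.7 and 53.4 CPM with the ATRNL1 lentivirus against 160, 148 and 123 CPM with the control lentivirus (-1.40, SE 0.18). Each library of the ATRNL1 lentivirus was below each control library for both genes. H1-2 fell as well, at 122, 135 and 125 CPM with the ATRNL1 lentivirus against 271, 265 and 230 CPM with the control lentivirus (-1.00, SE 0.08), and H1-4 (HIST1H1E) fell by 0.74 (SE 0.08). H1-1, a low H1 gene, averaged 0.587 CPM in ATRNL1 lentivirus libraries and 1.23 CPM in control lentivirus libraries (-1.08, SE 0.26), while H1-6, the testis-type H1t, averaged 0.144 CPM in ATRNL1 lentivirus libraries and 0.237 CPM in control lentivirus libraries and did not pass the test.

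Among H2A genes, 9 of 11 tested fell, 1 rose and 1 was not called. H2AC4 (HIST1H2AB) had the largest fall of any member with a mean of at least 1 CPM, at 1.64, 2.21 and 2.43 CPM with the ATRNL1 lentivirus and 8.28, 7.34 and 6.09 CPM with the control lentivirus (-1.82, SE 0.22). H2AC12 (HIST1H2AH) averaged 3.07 ± 0.15 CPM in ATRNL1 lentivirus libraries and 9.29 ± 1.16 CPM in control lentivirus libraries (SD, n = 3 each; -1.59, SE 0.18), and H2AC14 (HIST1H2AJ) averaged 2.33 CPM in ATRNL1 lentivirus libraries and 6.34 CPM in control lentivirus libraries (-1.45, SE 0.23). Only 16.3% of the 50-base words of the H2AC14 transcript are unique in the transcriptome, so its reads may be shared with a near copy. The H2A gene with the highest CPM, H2AC6 (HIST1H2AC), was the one not called: it stood at 43.6, 49.3 and 42.8 CPM with the ATRNL1 lentivirus and 42.9, 39.1 and 40.5 CPM with the control lentivirus, and the groups overlapped (0.15, SE 0.08; adjusted p = 0.179, edgeR). H2AC25 (HIST3H2A) was the member that rose, at 3.37, 3.30 and 3.52 CPM with the ATRNL1 lentivirus against 2.10, 2.04 and 2.05 CPM with the control lentivirus (0.72, SE 0.11; adjusted p = 8.85e-06, edgeR).

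Among H2B genes, 13 of 17 tested fell. H2BC17 (HIST1H2BO) stood at 6.46, 8.50 and 7.93 CPM with the ATRNL1 lentivirus and 24.8, 20.6 and 20.9 CPM with the control lentivirus (-1.54, SE 0.14), H2BC10 (HIST1H2BI) averaged 6.64 ± 0.91 CPM in ATRNL1 lentivirus libraries and 18 ± 1.4 CPM in control lentivirus libraries (SD, n = 3 each; -1.44, SE 0.12), and H2BC4 (HIST1H2BC) averaged 26.7 CPM in ATRNL1 lentivirus libraries and 70.7 CPM in control lentivirus libraries (-1.40, SE 0.12). The 2 H2B genes of highest CPM were not among those that fell. H2BC21 stood at 114, 135 and 130 CPM with the ATRNL1 lentivirus and 126, 126 and 125 CPM with the control lentivirus (0.01, SE 0.07; adjusted p = 0.908, edgeR), and H2BC5 averaged 72.1 CPM in ATRNL1 lentivirus libraries and 79.0 CPM in control lentivirus libraries (-0.13, SE 0.08; adjusted p = 0.219, edgeR). The groups overlapped for both genes.

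All 9 H3 genes tested fell. H3C12 (HIST1H3J) averaged 1.45 CPM in ATRNL1 lentivirus libraries and 4.03 CPM in control lentivirus libraries (-1.46, SE 0.21), H3C2 (HIST1H3B) averaged 27.2 ± 1.9 CPM in ATRNL1 lentivirus libraries and 67.1 ± 6.8 CPM in control lentivirus libraries (SD, n = 3 each; -1.31, SE 0.15), and the one of highest CPM, H3C6, averaged 35.7 CPM in ATRNL1 lentivirus libraries and 55.4 CPM in control lentivirus libraries (-0.63, SE 0.09). Of the 50-base words of H3C12, 59.1% are unique, and 44.6% of its exonic length is overlapped on the same strand by H2AC17. Its reads may therefore be shared with that H2A gene. For H3C13, the lowest of the 9 called, the 3 libraries of each group overlapped. Of 12 H4 genes tested, 10 fell. H4C4 (HIST1H4D) stood at 12.2, 17.7 and 16.6 CPM with the ATRNL1 lentivirus and 47.4, 32.4 and 45.9 CPM with the control lentivirus (-1.44, SE 0.17), and H4C5 averaged 69.8 CPM in ATRNL1 lentivirus libraries and 105 CPM in control lentivirus libraries (-0.59, SE 0.10). H4C16 (HIST4H4), the gene outside the 3 clusters, averaged 9.66 CPM in ATRNL1 lentivirus libraries and 9.50 CPM in control lentivirus libraries (0.02, SE 0.09; adjusted p = 0.886, edgeR).

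**Figure D2:**
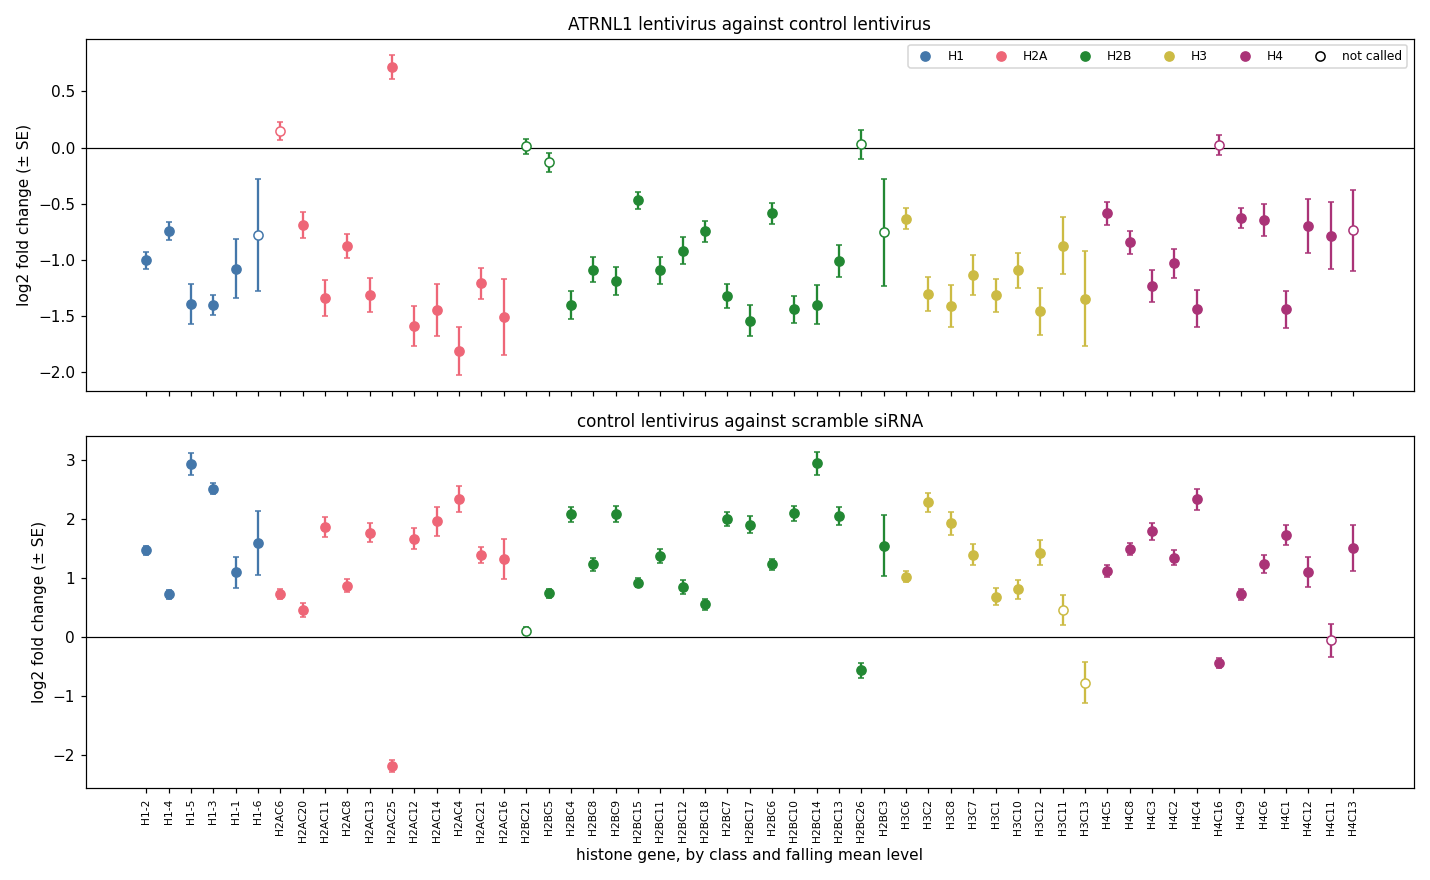
Log2 fold change of each of the 55 members tested, with its standard error, by class and falling mean level, for the ATRNL1 lentivirus against the control lentivirus (top) and the control lentivirus against the scramble siRNA (bottom); open symbols were not called. Most members lie below 0 at the top and above 0 at the bottom, and the control lentivirus libraries enter both, so the panels are not independent.

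The members that did not pass the test included some of those with the highest CPM. The 8 were H2BC21, H2BC5, H2AC6, H4C16 and H2BC26 (HIST3H2BB), all above 1 CPM, and H4C13, H1-6 and H2BC3, all under 1 CPM. Over all members tested, the median log2 fold change was -0.75 for the 21 with a transcript that runs more than 50 bases past the stem-loop, -0.90 for the 4 whose stem-loop transcripts do not, H2BC5 included, and -1.27 for the 30 whose model holds none. By cluster, 42 of 47 HIST1 genes fell (median -1.09) and 4 of 5 HIST2 genes fell (median -0.75). Of the 13 members tested with under 90% unique words, 13 fell, and of the 42 others 33 fell.

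The control lentivirus and the scramble siRNA were compared to place the level that the ATRNL1 lentivirus was set against. Histone genes were higher in the control lentivirus libraries: of the 55 tested, 48 were higher and 3 lower, and of all genes tested 30.3% were higher and 33.2% lower. The median of the 55 was 1.38, against -0.06 for all genes tested. Summed levels were 2.40 times those of scramble for all members, 3.13 times for H1, 1.94 for H2A, 1.94 for H2B, 2.83 for H3 and 2.51 for H4. Virus, selection and delivery method cannot be told apart in this comparison, and it shares the control lentivirus libraries with the one above.

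The largest differences were in H2BC14 and H1-5. H2BC14 (HIST1H2BM) stood at 18, 15.6 and 14.4 CPM with the control lentivirus, against 3.02, 0.959 and 2.31 CPM in scramble cells (2.95, SE 0.20), and H1-5 averaged 143 ± 19 CPM in control lentivirus libraries and 18.9 ± 8.7 CPM in scramble libraries (SD, n = 3 each; 2.93, SE 0.19). H1-3 followed at 99.1 CPM in control lentivirus libraries and 17.4 CPM in scramble libraries (2.51), H2AC4 at 7.23 CPM in control lentivirus libraries and 1.46 CPM in scramble libraries (2.34), H4C4 at 41.9 CPM in control lentivirus libraries and 8.33 CPM in scramble libraries (2.33) and H3C2 at 67.1 CPM in control lentivirus libraries and 13.9 CPM in scramble libraries (2.28). All 6 were called, with adjusted p from 2.09e-17 (H1-3) to 1.17e-09 (H2AC4) in edgeR. In each of the 6 the lowest control lentivirus library was above the highest scramble library. The libraries of these 2 groups did not overlap for 52 of the 55 members, and for 16894 of all 24659 genes tested (68.5%).

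By cluster, the summed HIST1 genes were at 2.81 times the scramble level and 45 of 47 tested were higher. The summed HIST2 genes were at 1.18 times, with 3 of 5 higher, and the one of highest CPM, H2BC21, was not called (125 CPM in control lentivirus libraries, 117 CPM in scramble libraries; 0.10, SE 0.07; adjusted p = 0.185, edgeR). The HIST3 and HIST4 genes went the other way. H2AC25 stood at 2.10, 2.04 and 2.05 CPM with the control lentivirus, against 9.60, 9.18 and 9.43 CPM in scramble cells (-2.19, SE 0.10; adjusted p = 1.82e-15, edgeR), H2BC26 averaged 3.63 CPM in control lentivirus libraries and 5.34 CPM in scramble libraries (-0.57, SE 0.13) and H4C16 averaged 9.50 CPM in control lentivirus libraries and 12.9 CPM in scramble libraries (-0.44, SE 0.09), a call that ended against scramble library 2 alone (-0.26). H3C13, H3C11 and H4C11, all near or under 1 CPM, were not called, and their libraries overlapped.

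**Figure D3:**
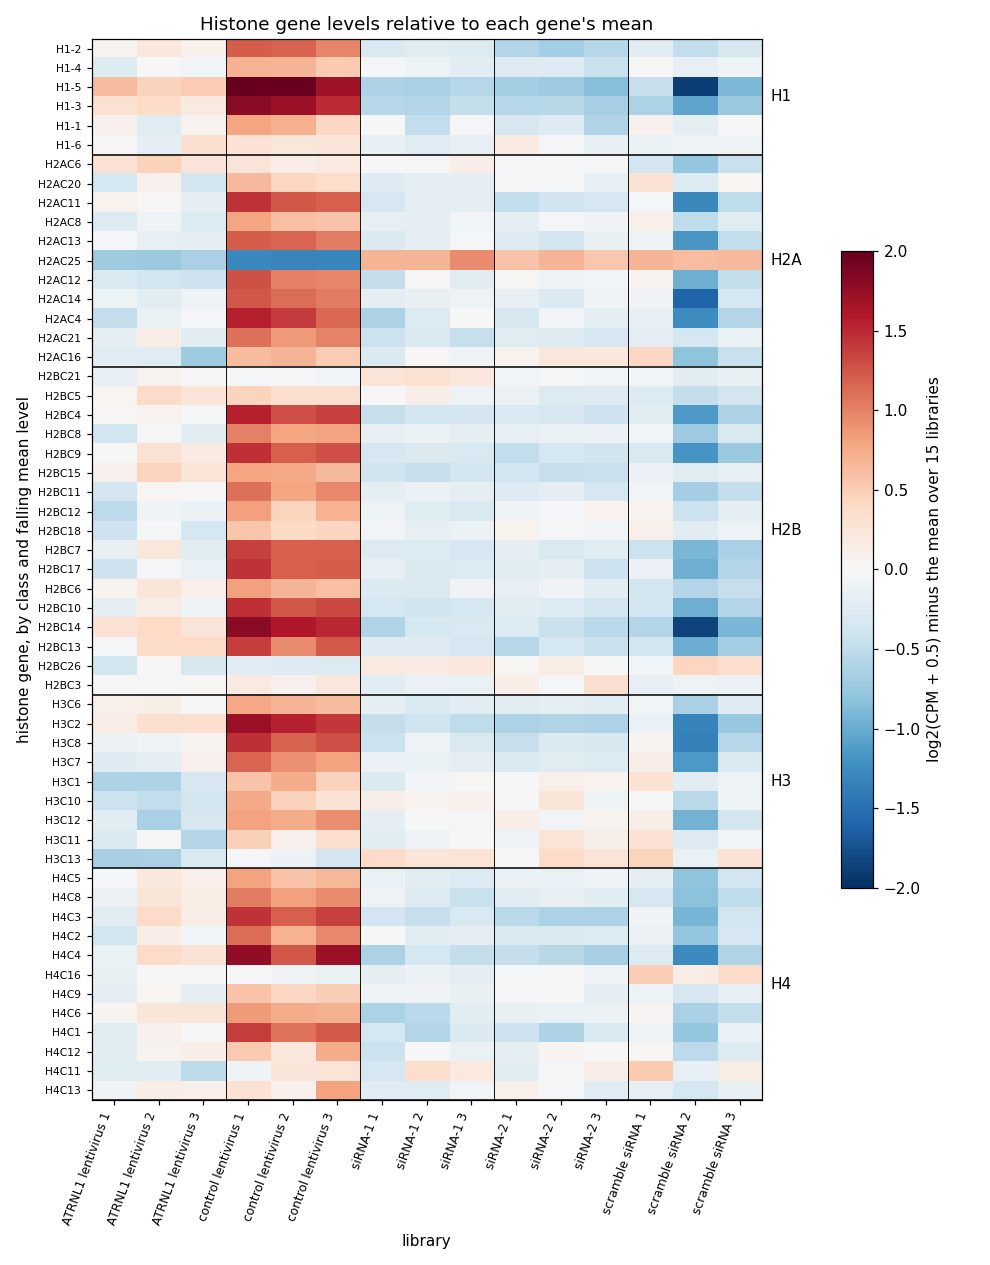
Level of each of the 55 members tested in each library, as log2(CPM + 0.5) minus the gene's mean over the 15 libraries (colour), with genes down the side by class and falling level and libraries across. The control lentivirus columns are the highest for most rows, H2AC25 runs the other way, and the second scramble library lies below the mean for most rows.

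Position allowed a closer look, since many H2A and H2B genes lie head to head and share the DNA between their starts. There were 12 divergent pairs with at most 1000 bases between the starts, 11 of them an H2A beside an H2B gene, and both genes were tested in 9. The exception is H3C12 beside H2BC17. The start of H3C12 lies within the model of H2AC17, which also pairs with H2BC17. Of the 55 members tested, paired or not, 46 were lower with the ATRNL1 lentivirus than with its control. In the control lentivirus against scramble, 48 of the 55 were higher. Whether paired genes agreed more than other members was not tested. With the ATRNL1 lentivirus both genes of a pair fell in 6 of 9, and in 3 pairs 1 gene alone was called. The first of these was H2BC4 and H2AC6, 218 bases apart, where H2BC4 fell (-1.40) and H2AC6 was not called (0.15). The second was H2AC20 and H2BC21, 322 bases apart, where H2AC20 stood at 22.7, 30.7 and 22.2 CPM with the ATRNL1 lentivirus against 45.5, 39.1 and 37.2 CPM with the control lentivirus (-0.69, SE 0.12) and H2BC21 was not called (0.01). The third was H2AC25 (0.72) and H2BC26 (0.03), 233 bases apart. Between the control lentivirus and scramble, both genes were higher in 7 of 9 pairs and both lower in 1, the HIST3 pair. In the remaining pair H2AC20 was higher (0.46) and H2BC21 was not called. In the 3 pairs with 1 gene alone called under the ATRNL1 lentivirus, the genes not called have transcripts that run far past the stem-loop. They run up to 1128 bases past it for H2AC6, 1729 for H2BC21 and 1917 for H2BC26. Of the genes called in these pairs, H2BC4 runs 116 bases past it and H2AC25 390, and none of the stem-loop forms was found in the model of H2AC20. Long transcripts also occurred in pairs where both genes fell. H2AC11 runs 1761 bases past the stem-loop and fell (-1.34), and H2BC8 runs 1059 bases past it and fell (-1.09). Whether transcript length bears on these calls was not tested.

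With either siRNA few histone genes passed the test, and the number depended on the scramble library. With siRNA-1, 5 of 55 members tested were higher and 1 was lower than with scramble, against 5.85% higher and 3.76% lower among all genes. With siRNA-2, 8 were higher and 4 lower, against 9.64% and 8.48% of all genes. The members' medians were 0.22 with siRNA-1 and 0.18 with siRNA-2. The 2 comparisons share the scramble libraries, so their values are given side by side only.

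H2AC6 was higher with both: it stood at 35.9, 35.1 and 39.2 CPM in siRNA-1 cells, 35.3, 35.0 and 34.6 CPM in siRNA-2 cells and 27.3, 20.6 and 26.0 CPM in scramble cells. Its log2 fold change was 0.58 for siRNA-1 (SE 0.09; edgeR adjusted p = 5.32e-05) and 0.51 for siRNA-2 (SE 0.09; edgeR adjusted p = 9.93e-05), and no siRNA library overlapped a scramble library. Of all genes tested, 28.8% did not overlap between siRNA-1 and scramble and 36.7% between siRNA-2 and scramble. H4C16 was lower with both, at 8.74, 9.28 and 8.89 CPM in siRNA-1 cells, 9.87, 10.0 and 9.63 CPM in siRNA-2 cells and 14.4, 11.2 and 13.2 CPM in scramble cells (-0.53 and -0.39, SE 0.09 each). H4C16 was not called against scramble library 2 alone, at -0.31 with siRNA-1 and -0.19 with siRNA-2.

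H2BC21 was higher with siRNA-1, at 156, 159 and 150 CPM against 124, 110 and 116 CPM in scramble cells (0.41, SE 0.07; adjusted p = 0.000187, edgeR; not called against scramble library 1 alone, at 0.33), and stood at 125, 125 and 124 CPM in siRNA-2 cells (0.10, SE 0.07; edgeR adjusted p = 0.383). H2BC5 was higher with siRNA-1 (61.8 CPM in siRNA-1, 47.3 CPM in scramble; 0.39, SE 0.08), a call that ended against scramble library 1 alone (0.29) and without the 3 libraries that lie between the other 2 of their group (0.33). H2BC7 (HIST1H2BF) was higher with siRNA-1 (8.15 CPM in siRNA-1, 6.24 CPM in scramble; 0.39, SE 0.12) and with siRNA-2 (8.47 CPM; 0.45, SE 0.12). H2BC14 was called higher with siRNA-1 (3.46 CPM in siRNA-1, 2.10 CPM in scramble; 0.73) and siRNA-2 (3.45 CPM; 0.74), but its siRNA-1 libraries overlapped the scramble libraries and neither call held without scramble library 2 (0.42 and 0.42). The H2BC14 call with siRNA-1 also ended without siRNA-1 library 2 or 3, and that with siRNA-2 without siRNA-2 library 1. With siRNA-2, H4C8 (0.35), H4C5 (0.33), H2BC10 (0.39) and H2BC6 (0.34) were also called higher and H1-2 (-0.27), H1-4 (-0.24) and H2BC15 (-0.28) lower. Several of these calls ended under more than 1 of the 6 ways of leaving out a library of the groups compared. The calls of H4C8 (0.23 to 0.36) and H2BC10 (0.23 to 0.42) ended without siRNA-2 library 1 or 2 or scramble library 2 or 3, and that of H4C5 without any of these or siRNA-2 library 3 (0.17 to 0.35). The H1-4 call ended in each case except without scramble library 2 (-0.27 to -0.18), and the H1-2 call without siRNA-2 library 2 or scramble library 1 or 3 (-0.26 to -0.20). The H2BC7 call with siRNA-1 ended in each case except without scramble library 1 (0.28 to 0.42), and its call with siRNA-2 without scramble library 2 (0.33). H2BC3, at 0.172 CPM in siRNA-2 and 0.0573 CPM in scramble libraries, completes the calls with siRNA-2 (1.49) and lies under 1 CPM.

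The 3 scramble libraries were not alike for these genes. Scramble library 2 was the lowest of the 3 in all 5 class sums, at 43.2 CPM for H3 against 83.2 and 62.7 CPM in scramble libraries 1 and 3. Set against scramble library 1, the siRNA-1 mean was below for 40 of 55 members (median difference in log2(CPM + 0.5) of -0.13), and set against scramble library 2 it was above for 49 of 55 (0.50). With siRNA-2 the same counts were 39 below (-0.11) and 48 above (0.46). Without scramble library 1, 28 members were called higher with siRNA-1 and 25 with siRNA-2, and without scramble library 2 the counts were 3 and 1. Scramble library 2 was also the lowest in mean log2(CPM + 0.5) over 28 S phase genes (3.82, against 4.11 and 4.01) and over 15 mitosis genes (4.32, against 5.04 and 4.71). Whether that library's cycling state set the siRNA counts was not tested.

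**Figure D4:**
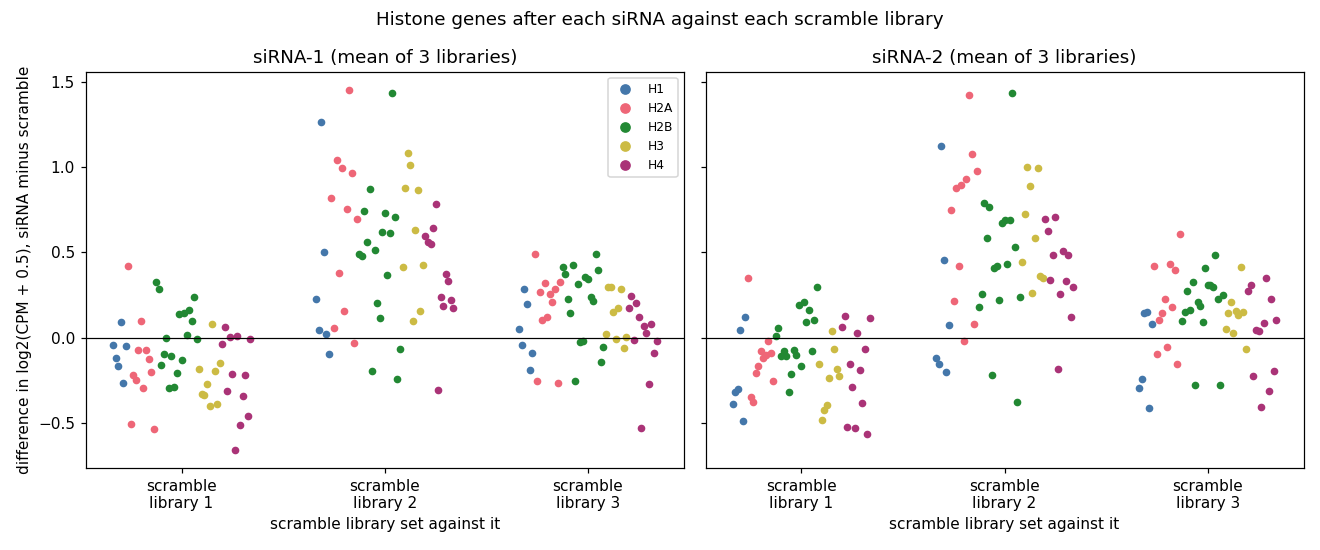
Difference in log2(CPM + 0.5) between the mean of the 3 siRNA libraries and each single scramble library, siRNA minus scramble, with 1 point per member tested, coloured by class; siRNA-1 is left and siRNA-2 right. Against scramble library 1 most points lie below 0, and against scramble library 2 most lie above it, in both panels.

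The 2 siRNAs differed from each other in 3 members. H2BC21 was higher with siRNA-1 than siRNA-2 (0.31, SE 0.07; adjusted p = 0.00272, edgeR). H1-2 stood at 95.1, 98.9 and 97.0 CPM in siRNA-1 cells and 77.6, 73.2 and 78.5 CPM in siRNA-2 cells (0.34, SE 0.08; adjusted p = 0.00341, edgeR), and H2BC3 was lower. Of all genes tested, 5.6% were higher and 4.53% lower in this comparison. The members' median was 0.03.

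Genes that act with histone supply were counted beside the members. Counts of each list are to be read beside the shares of all genes tested. With the ATRNL1 lentivirus 18% of these were lower and 19.1% higher, and between the control lentivirus and scramble 30.3% were higher and 33.2% lower. With siRNA-1 5.85% were higher and 3.76% lower, and with siRNA-2 9.64% and 8.48%. Of 28 S phase and DNA replication genes, 28 were lower with the ATRNL1 lentivirus than with the control lentivirus (median -1.32), and 27 were higher with the control lentivirus than with scramble (median 1.76). CDC6, which loads the replicative helicase, averaged 27.2 CPM in ATRNL1 lentivirus libraries and 103 CPM in control lentivirus libraries (-1.93), and MCM6, a subunit of that helicase, averaged 62.3 CPM in ATRNL1 lentivirus libraries and 190 CPM in control lentivirus libraries (-1.61). In siRNA-1 cells 11 of the 28 were higher (median 0.23), and with siRNA-2 10 were higher and 1 lower (median 0.21), MCM2 among those with both (17.5 CPM in each siRNA group and 12.1 CPM in scramble; 0.53 in each comparison). Mean log2(CPM + 0.5) over the 28 was 4.15, 4.22 and 4.22 with siRNA-1 and 4.19, 4.20 and 4.19 with siRNA-2. In scramble libraries 1, 2 and 3 it was 4.11, 3.82 and 4.01. The part of scramble library 2 in these siRNA counts was not tested. Of 15 mitosis genes, 15 were lower with the ATRNL1 lentivirus (median -1.01) and 15 higher with the control lentivirus than with scramble (median 2.93), CDK1 among them (the kinase that drives entry into mitosis; 112 CPM with the ATRNL1 lentivirus, 242 CPM with the control lentivirus and 26.3 CPM with scramble). In siRNA-1 cells 2 of the 15 were higher, and in siRNA-2 cells 1 was lower. Marker sums of other cell types are given beside these. Summed levels of 4 smooth muscle and pericyte markers ran from 253 to 309 CPM with the ATRNL1 lentivirus, 356 to 366 CPM with the control lentivirus and 78.9 to 143 CPM with scramble, with 1 marker under 1 CPM throughout. RGS5 made up most of that sum (252 CPM on average with the ATRNL1 lentivirus, 349 CPM with the control lentivirus), whereas KCNJ8 averaged 21.8 CPM with the ATRNL1 lentivirus and 9.77 CPM with the control lentivirus. The 5 ventricular markers summed to 14396 to 15662 CPM with the ATRNL1 lentivirus, 8872 to 10656 CPM with the control lentivirus and 5544 to 6143 CPM with scramble. MYH7 and MYL2 made up most of that sum. IRX4, HEY2 and LBH averaged 31.5, 46.8 and 139 CPM with the control lentivirus, below their 81.2, 90.9 and 308 CPM with scramble. With the ATRNL1 lentivirus these genes averaged 37.6, 84.4 and 319 CPM. The 4 epicardial markers, 2 of them under 1 CPM throughout, summed to 9.79 to 12.7 CPM with the ATRNL1 lentivirus, 7.53 to 8.38 CPM with the control lentivirus and 3.82 to 5.45 CPM with scramble. The other 2 differed in direction between the lentiviruses. WT1 averaged 9.06 CPM with the ATRNL1 lentivirus and 4.41 CPM with the control lentivirus, whereas ALDH1A2 averaged 1.69 and 3.19 CPM. Summed levels of 7 fibroblast markers ran from 130 to 164 CPM with the ATRNL1 lentivirus, 119 to 124 CPM with the control lentivirus and 161 to 227 CPM with scramble, with 2 under 1 CPM. The part of other cell types and the part of the share of cycling cells in the histone result were not tested.

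**Figure D5:**
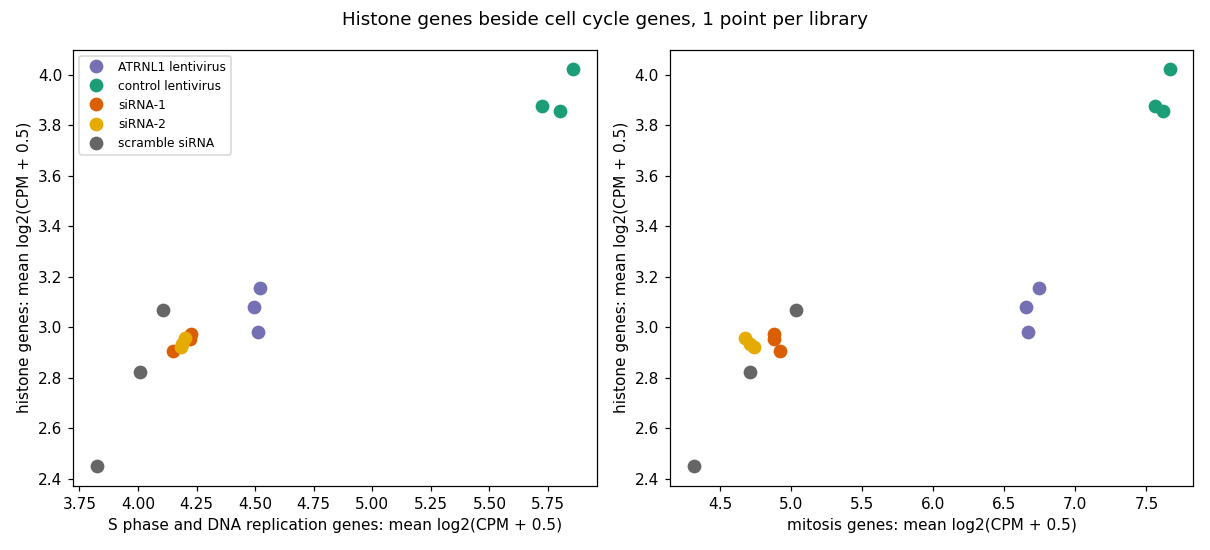
Mean log2(CPM + 0.5) of the 55 histone genes tested (vertical) against that of 28 S phase genes (left) and 15 mitosis genes (right), with 1 point per library. The control lentivirus libraries stand apart at the upper right, and the ATRNL1 lentivirus libraries (2.98 to 3.15 in histone level) lie to the right of the siRNA and scramble libraries, by more in the mitosis panel.

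Set beside scramble, the ATRNL1 lentivirus libraries had these levels. Their mean log2(CPM + 0.5) over histone genes was 2.98, 3.15 and 3.08, against 3.07, 2.45 and 2.82 in scramble, whereas over S phase genes it was 4.51, 4.52 and 4.49, against 4.11, 3.82 and 4.01, and over mitosis genes 6.67, 6.75 and 6.65, against 5.04, 4.32 and 4.71. By this mean, which weighs all genes alike, the highest scramble library lay within the ATRNL1 lentivirus range for histone genes. For both cell cycle lists it lay below that range. By the summed level of histone genes, all ATRNL1 lentivirus libraries (985, 1147 and 1059 CPM) lay above the highest scramble library (931 CPM). These groups differ in delivery and were not tested against each other.

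Factors that make, process and decay histone mRNA went in both directions, as did all genes tested. Of all genes, 18% were lower and 19.1% higher with the ATRNL1 lentivirus. Between the control lentivirus and scramble, 30.3% were higher and 33.2% lower. Of 25 tested, 11 were lower and 4 higher with the ATRNL1 lentivirus (median -0.13), among them CASP8AP2 (FLASH, of the cleavage complex; 85.4 CPM with the ATRNL1 lentivirus, 119 CPM with its control; -0.48). SLBP itself was lower by 0.40 on the log2 scale with the ATRNL1 lentivirus and higher by 0.80 with the control lentivirus than with scramble. In the control lentivirus against scramble, 13 of 25 were higher and 6 lower (median 0.21), with SYMPK (symplekin; 18.2 CPM in control lentivirus, 48.8 CPM in scramble; -1.43) and CPSF1 (17.3 CPM in control lentivirus, 56.7 CPM in scramble; -1.70) those of lowest p among the lower ones and ERI1, the exonuclease that trims histone mRNA ends, higher (40.3 CPM in control lentivirus, 19.3 CPM in scramble; 1.06). Of 18 histone chaperones, which hand new histones to DNA, 10 were lower and 3 higher with the ATRNL1 lentivirus (median -0.23). They included the chromatin assembly factor subunits CHAF1A (18.4 CPM with the ATRNL1 lentivirus, 48.0 CPM with its control; -1.38) and CHAF1B (6.68 CPM with the ATRNL1 lentivirus, 23.2 CPM with its control; -1.79), and the H3-H4 chaperone ASF1B (5.30 CPM with the ATRNL1 lentivirus, 13.6 CPM with its control; -1.37). Between the control lentivirus and scramble 12 were higher and 5 lower (median 0.56). MCM2 is in both the chaperone list and the S phase list, so it is counted in each. With siRNA-1 4 of 18 chaperones were higher and with siRNA-2 3, CHAF1B among them at 5.72 CPM in siRNA-1, 5.75 CPM in siRNA-2 and 3.49 CPM in scramble libraries (0.73 and 0.74). Of the 25 factors above, 1 was lower with siRNA-1 (LSM1) and 1 with siRNA-2 (SLBP, 17.8 CPM, against 21.8 CPM in scramble; -0.29).

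The replication-independent histone variants, encoded outside the clusters, did not follow one direction. Of 11 tested, 7 were lower and 2 higher with the ATRNL1 lentivirus (median -0.29), against 46 lower and 1 higher of the 55 clustered genes. H2AZ1, an H2A.Z gene linked to proliferation, averaged 114 CPM in ATRNL1 lentivirus libraries and 230 CPM in control lentivirus libraries (-1.02), and H2AX, whose mRNA is known to exist in both stem-loop and polyadenylated forms, averaged 9.23 CPM in ATRNL1 lentivirus libraries and 17.0 CPM in control lentivirus libraries (-0.89). In the other direction, H3-3B, an H3.3 gene, was higher by 0.40. Between the control lentivirus and scramble, 5 were higher and 5 lower. CENPA, the centromeric H3, averaged 25.4 CPM in control lentivirus libraries and 2.68 CPM in scramble libraries (3.23), while H3-3B was lower (-0.56). With siRNA-1 2 variants were higher and 1 lower, and with siRNA-2 1 was higher and 3 lower. H3-3A, the other H3.3 gene, was higher with both, at 32.5 CPM in siRNA-1, 31.5 CPM in siRNA-2 and 18.9 CPM in scramble libraries (0.79 and 0.74).

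RNAs that lack a polyA tail for other reasons were looked at because they share that feature with S phase histone mRNA. Of 12 listed, 4 were tested: RN7SL2, SNORD3A, SCARNA7 and SCARNA5. RN7SL2, the RNA of the signal recognition particle, averaged 453 CPM with the control lentivirus and 3668 CPM in scramble cells (-3.02), and SNORD3A, the U3 small nucleolar RNA, averaged 74.3 CPM in control lentivirus libraries and 273 CPM in scramble libraries (-1.88), opposite in direction to the histone genes. With the ATRNL1 lentivirus RN7SL2 averaged 625 CPM against 453 CPM with the control lentivirus (0.46) and SCARNA7 164 CPM against 114 CPM with the control lentivirus (0.53), while SCARNA5 fell (-0.93). SCARNA5 was also lower in control lentivirus than scramble libraries (-1.10), and lower with siRNA-1 than with scramble (-0.96). The part of library make-up in the histone differences was not tested.

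The other 16 members did not pass the filter on low counts and enter no count above. Of these, 6 had no read in any library: H2AC1 and H2BC1, which are testis-type genes and form a divergent pair, and H3C4, H2AC15, H3C15 and H3-7. For 11 of the 16, under 20% of the 50-base words of the transcript were unique, so a low count there need not mean a low level. H3C4 is overlapped along its whole exonic length on the same strand by another gene model, and H2AC15 on the other strand by H2BC15. H3C14 and H3C15 have identical transcripts, as do H4C14 and H4C15, and at most 2.82% of their words were unique. The other 5 were unique in at least 90% of words, and among them H3-4, the testis-type H3, had 34 reads over the 15 libraries, H3C3 had 17 and H4C7 had 5. The members of highest CPM under the filter were H4C14 (0.0951 CPM on average), H3-4 (0.0362 CPM) and H2AC17 (0.0225 CPM), whose model is overlapped over 88.0% of its length by H3C12.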

How the data were processed

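Values were raw counts: the authors deposited whole numbers for each gene in 15 libraries. The submitters' processing notes name GRCh 38, DESeq2 1.30.1 and STAR 2.7.9a with no role; counting program and strand use were not described, so overlapping and antisense genes cannot be told apart. Of 59429 rows, 649 carried a bare number (0.00157% to 0.00437% of counts) and were left out. Column names gave the group of a library but not its sample. Genes were filtered with edgeR's filterByExpr by group, scaled by TMM and fitted in 1 quasi-likelihood model of 5 groups (edgeR 4.0.16, R 4.3.3) over 24659 genes. The SE is the size of the log2 fold change divided by the square root of F. The test was also run on simulated counts with a common spread for all genes and independent libraries. That setting does not cover uneven or pooled libraries. Gene models came from GENCODE release 29 and promoters from RefSeq GRCh38.p14. Uniqueness is the share of 50-base words of a gene's transcripts found in no other gene. Members, lists and alternatives were chosen with earlier results of these data known. Genes named are the 12 members of highest CPM, the one of highest CPM in each class and cluster, the 6 largest called per comparison with a mean of at least 1 CPM, testis-type members, the 3 highest under the filter, and up to 3 called list genes per comparison by lowest p; H2AC20, H2BC26, H2BC6, H2BC15, H2BC3, H3C13, H3C11, H4C11, H4C13, SLBP and H3-3B were named after their values were seen. Alternatives were DESeq2 1.42.0, other scalings and filters, fewer groups, single scramble libraries and each library left out.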

Additional observations from a re-analysis of the deposited data

Results flagged for a closer look

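The effects of the 2 siRNAs against ATRNL1, each set against the same scramble libraries, differed in 2 members above 1 CPM, by the direct test of siRNA-1 against siRNA-2. H2BC21 was higher with siRNA-1 than with siRNA-2 by 0.31 on the log2 scale and H1-2 by 0.34, in 3 of 3 siRNA-1 libraries against every siRNA-2 library. Of all genes tested, 33.9% did not overlap between the 2 siRNAs. Both calls held when any 1 library was left out and ended without the 3 libraries that lie between the other 2 of their group (0.29 for H2BC21, adjusted p = 0.0757, and 0.33 for H1-2, adjusted p = 0.0631, edgeR with Benjamini-Hochberg adjustment).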

How the results depend on the processing

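Of 936 calls of the named members over the alternatives run, 859 held, 77 were lost and none reversed; those of H2BC6, H2BC15 and H2BC3 with the siRNAs were not followed. For the ATRNL1 lentivirus against the control lentivirus, 43 to 46 members were lower and 1 higher with any 1 library left out, with a median of -1.12 to -0.95. For the control lentivirus against scramble, the median ran from 1.15 to 1.47 with 1 library left out and was 1.00 and 1.61 against scramble libraries 1 and 2 alone.

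The siRNA counts were less stable. With siRNA-1, 14 were higher and 2 lower with no filter, 2 lower with library size only or with a filter at 1 CPM, 3 higher and 2 lower with the 2 groups alone, and 2 higher without the 3 in-between libraries, an alternative chosen after seeing the data. Against scramble library 1 alone 1 was higher and 2 lower (median -0.16), and against scramble library 2 alone 32 and 0 (0.59). Leaving out 1 library gave 3 to 28 higher and 1 to 2 lower (median 0.010 to 0.36). With siRNA-2, 13 were higher with no filter, 4 with the 2 groups alone, 2 (and 1 lower) without the in-between libraries, 1 against scramble library 1 alone (-0.13), 31 (and 0 lower) against scramble library 2 (0.60), and 4 (and 1 lower) against scramble library 3. Leaving out 1 library gave 1 to 25 higher and 1 to 5 lower (0.046 to 0.39). Between the siRNAs, the median was -0.048 with library size only, 0.00 with no filter and -0.0039 without the in-between libraries, and -0.022 to 0.019 with 1 library left out. No member was lower with no filter, a 1 CPM filter or DESeq2 (0 in each), 5 were higher and 2 lower with the 2 groups alone, 0 and 0 without the in-between libraries, and 0 to 1 lower with 1 library left out. In that comparison with the reported edgeR settings, 5 were higher and 2 lower at an unadjusted p under 0.05.

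With library size only, which moved the median of all genes by -0.20 for the control lentivirus against scramble, the summed level was 961 CPM with the ATRNL1 lentivirus, 1754 with the control lentivirus, 959 with siRNA-1 and 932 with siRNA-2. By class it was 256 (H1), 116 (H2A) and 78.1 (H3) with the ATRNL1 lentivirus, 194 (H2A), 522 (H2B) and 163 (H3) with the control lentivirus, 215 (H1), 379 (H2B), 72.8 (H3) and 162 (H4) with siRNA-1, and 191 (H1), 136 (H2A), 358 (H2B), 75.0 (H3) and 172 (H4) with siRNA-2. DESeq2 size factors gave siRNA-2 sums of 833 in all, 122 for H2A, 320 for H2B and 154 for H4. The cause of these changes was not tested. No paired analysis was possible because the column names of the libraries carry no number that the labels share between groups. Members under about 1 CPM rest on few reads, and near-identical copies limit single genes at any depth.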
